A study of Mus musculus with 4 samples.

Results

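The genes described here are the 5 members of the Dlx group that were counted in the developing arcuate nucleus (ARC), Dlx1, Dlx2, Dlx5, Dlx6 and the antisense RNA Dlx6os1, together with the zinc finger genes Sp8 and Sp9. They were chosen by name, and all 7 are rows of the count table of 27998 genes. Single cells were taken from the GFP-positive ARC region of 6 E15 Pomc-eGfp embryos of the C57BL/6 strain, in which GFP under Pomc regulatory sequences outlines the ARC. The embryos were combined before dissociation, and the 4 deposited samples are sequencing runs of 1 library made on the 10x droplet platform. Since every embryo is in the same library, no comparison has a replicate and no test was made. Intervals are 95% intervals and cover counting error only. Of 6465 barcodes, 6351 were kept, with 1748 to 16836 UMIs (unique molecular identifiers, each standing for 1 counted transcript) and a median of 3338.

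Dlx genes encode homeodomain transcription factors that lie in the genome as facing pairs sharing enhancers. In the embryonic forebrain they are switched on in progenitors that carry Gsx factors, Dlx2 and Dlx1 first and Dlx5 and Dlx6 later, and they direct the GABAergic fate through targets such as the glutamate decarboxylase genes. Sp8 and Sp9 are related zinc finger factors that act downstream of Dlx1 and Dlx2 in telencephalic interneurons. In the ARC, Dlx1 and Dlx2 are known for promoting Ghrh neurons and holding back the Otp-dependent Agrp neurons. Lhx1 encodes a LIM homeodomain factor of hypothalamic neurons, Ghrh the growth hormone releasing hormone, and Th tyrosine hydroxylase, the first enzyme of dopamine synthesis.

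In GRCm38, the assembly also called mm10, Dlx1 lies at chr2:71528113-71533981 on the plus strand and Dlx2 at chr2:71543408-71546754 on the minus strand, with 9426 bases between them. Sp9 lies on the same chromosome at chr2:73271925-73284706, plus strand, 1.73 Mb from Dlx2. Dlx6 is at chr6:6863334-6868568 on the plus strand and Dlx5 at chr6:6877805-6882085 on the minus strand, with 9236 bases between them. The whole of Dlx6, 5235 bases, lies within the span of Dlx6os1 on the opposite strand, at chr6:6820189-6871592, and the whole of Dlx1 lies within the antisense gene Dlx1as. Sp8 stands alone at chr12:118846329-118852576. Whether the counting used strand is not given in the sources used here, so UMIs of Dlx6 and Dlx6os1, and of Dlx1 and Dlx1as, may not be fully told apart.

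The stretches just before the starts of Dlx2, Sp9 and Dlx6os1 are shown, while those of Dlx1 and Sp8 are not printed. They are RefSeq promoter windows of GRCm38.p6, trimmed to bases that touch no annotated untranslated region and written 5′ to 3′ on the gene's strand, with capitals marking TAATTA, the palindromic core bound by many homeodomain proteins. The Dlx2 stretch is chr2:71546755-71547004 on the minus strand and the Sp9 stretch chr2:73271676-73271924 on the plus strand. Dlx6os1 has a start at the higher coordinate, with the stretch chr6:6869534-6869783, and a start at the lower coordinate, with the stretch chr6:6861684-6861933, both on the minus strand.
Dlx2: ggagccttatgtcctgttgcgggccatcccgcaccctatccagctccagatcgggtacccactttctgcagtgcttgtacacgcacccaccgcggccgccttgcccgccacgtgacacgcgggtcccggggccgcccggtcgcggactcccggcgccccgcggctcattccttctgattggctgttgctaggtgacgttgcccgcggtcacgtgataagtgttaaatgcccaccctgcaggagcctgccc
Sp9: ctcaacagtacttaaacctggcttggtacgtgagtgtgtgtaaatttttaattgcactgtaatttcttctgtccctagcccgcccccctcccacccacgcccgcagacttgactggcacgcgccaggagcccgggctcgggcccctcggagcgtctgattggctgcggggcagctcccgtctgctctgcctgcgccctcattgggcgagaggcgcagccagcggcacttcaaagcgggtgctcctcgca
Dlx6os1 (higher start): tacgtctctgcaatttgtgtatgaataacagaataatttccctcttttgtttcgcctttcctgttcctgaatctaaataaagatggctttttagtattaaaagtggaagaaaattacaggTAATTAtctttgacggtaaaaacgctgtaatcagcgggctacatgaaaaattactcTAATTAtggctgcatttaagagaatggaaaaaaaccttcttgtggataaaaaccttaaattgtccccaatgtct
Dlx6os1 (lower start): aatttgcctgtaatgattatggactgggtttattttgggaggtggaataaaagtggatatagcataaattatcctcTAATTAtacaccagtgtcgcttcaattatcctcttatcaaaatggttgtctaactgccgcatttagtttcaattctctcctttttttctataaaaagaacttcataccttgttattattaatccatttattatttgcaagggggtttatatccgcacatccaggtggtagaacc
The Dlx2 and Sp9 stretches held no TAATTA and had a GC content of 66.4% and 62.2%. The higher Dlx6os1 start, where the stretch crosses 1 annotated exon, held 2 copies at a GC content of 33.2%. The lower Dlx6os1 start held 1 copy at 34%. Over 32851 windows of 300 bases, 5.29% held the motif, which reads the same on either strand. Of the 5 members with a window, Dlx6os1 and Sp8 held it in at least 1 window, and Dlx1, Dlx2 and Sp9 did not. A match is a run of letters and says nothing of binding.

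The members were sparse. Of the 6351 cells, 856 (13.5%, 12.6 to 14.3) held at least 1 UMI of a Dlx gene. Dlx2 was found in 459 cells with 747 UMIs, Dlx1 in 412 cells with 678 UMIs, and Dlx5 in 298 cells with 385 UMIs. Dlx6os1 was found in 256 cells, Dlx6 in 140 cells, Sp9 in 142 cells and Sp8 in 15 cells. Most cells with a member held a single UMI of it. For Dlx1 this was true of 248 cells, while 97 cells held 2 UMIs and 67 held 3 or more, up to 6. For Dlx6 it was true of 125 cells, and no cell held more than 3.

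Cells that should lack these genes gave the level of background. In 244 cells gated on vessel, fibroblast and macrophage genes, with a median of 3775.5 UMIs, 3 cells (1.23%) held a Dlx UMI. There Dlx5, Dlx6, Sp8 and Sp9 were found in 0 of 244 cells, a count that leaves room for shares of up to 1.23%. In 547 cells gated on pituitary genes, with a median of 4269 UMIs, 19 cells (3.47%) held a Dlx UMI and 3 cells (0.548%) held Sp8. Sp8 is the only member that did not stand above these cells. It was found in 10 of 4006 neurons (0.25%, 0.12 to 0.459) and 5 of 2345 other cells (0.213%), shares no higher than in the pituitary-gated cells. Of the 10 Sp8 neurons, 5 held Dlx1, a ratio to the expected number of 6.24 (2.03 to 14.6). Dlx5 was found in 4 (6.49, 1.77 to 16.6) and Sp9 in 4 (12.7, 3.46 to 32.6). For Dlx6, found in 2, the interval includes 1 (6.41, 0.776 to 23.2). With the expected number summed within 10 bins of cells by depth, Dlx1 was at 4.41 (1.43 to 10.3). On that measure the intervals of Dlx2, Dlx6 and Dlx6os1 include 1. These ratios may rest on the same few cells.

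Neurons were taken as cells with at least 2 UMIs of Stmn2, which encodes a tubulin-binding protein of neurons. The labels call the cells arcuate nucleus neurons, and 4006 of them (63.1%) passed as neurons, with a median of 3408.5 UMIs, beside 2345 other cells with a median of 3182 UMIs. A Dlx UMI was found in 673 neurons (16.8%, 15.7 to 18) and in 183 other cells (7.8%, 6.75 to 8.96). After thinning of each cell to 2167 UMIs, with neurons still set by their full Stmn2 counts, the shares were 13.5% and 5.88%. Levels are given as pooled UMIs per 1000000 UMIs of all genes (CPM) and are compared between groups of cells, not between genes. Dlx1, at 33.1 CPM in neurons and 18.5 CPM in other cells, had a ratio of 1.79 (1.5 to 2.15). Dlx2 had a ratio of 1.53 (1.3 to 1.8) and Dlx6os1 1.5 (1.19 to 1.92). With a mitochondrial limit of 5%, the log2 ratio of Dlx6os1 was 0.35 (-0.01 to 0.72), an interval that includes 0. Dlx5 and Dlx6, which act later, had higher ratios under this gate. Dlx5 was at 21.2 CPM in neurons and 6.46 CPM in other cells, a ratio of 3.28 (2.47 to 4.41). Dlx6 had a ratio of 5.5 (3.23 to 10.1), and Sp9 a ratio of 4.45 (2.87 to 7.2). These ratios depended on how neurons were set. When a neuron needed 5 Stmn2 UMIs, a gate that leaves the Dlx-rich cells with 2 to 4 Stmn2 UMIs among the other cells, the log2 ratios were -0.1 (-0.32 to 0.12), an interval that includes 0, for Dlx1, -0.57 for Dlx2 and -0.53 for Dlx6os1. Under that gate Dlx5 was at 0.03 (-0.27 to 0.32) and Dlx6 at 0.23 (-0.24 to 0.7), with intervals that include 0, and Sp9 was at 0.81 (0.38 to 1.25). With 2 Tubb3 UMIs as the gate (Tubb3 encodes a neuronal tubulin), the log2 ratios were 1.55 for Dlx1, 1.8 for Dlx2, 2.09 for Dlx6os1, 1.88 for Dlx5, 2.11 for Dlx6 and 3.47 for Sp9, so that Dlx5 and Dlx6 no longer stood apart from the other Dlx genes. In thinned cells, with neurons set by thinned Stmn2 counts, the log2 ratio was 1.37 for Dlx6 and 1.27 for Sp9, and that of Dlx2 was 0.28 with an interval that includes 0.

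Cells were next arranged by their Stmn2 UMIs, which tend to accumulate as neurons mature. The median depth was between 2673 and 3205.5 UMIs in the first 4 tiers and 4471 UMIs in the highest. Dlx2 was at 19.4 CPM in the 1705 cells with no Stmn2 UMI and at 31.6 CPM in the 640 cells with 1 UMI. It was highest, at 75 CPM, in the 1069 cells with 2 to 4 UMIs. It was at 43.7 CPM in the 1420 cells with 5 to 9 UMIs and at 12.4 CPM in the 1517 cells with 10 or more. The Dlx2 intervals of the 5 tiers are apart, except that the tier with 1 UMI (25.1 to 39.2) touches the tier with 5 to 9 (38 to 50). Dlx1 followed the same course with a flatter top, at 57.5 CPM (49.4 to 66.4) for 2 to 4 UMIs and 48.9 CPM (42.9 to 55.6) for 5 to 9. Dlx6os1 went from 7.83 CPM in cells without Stmn2 to 34.5 CPM at 2 to 4 UMIs and 4.94 CPM at 10 or more. From the tier with 2 to 4 UMIs to the tier with 10 or more, the summed Dlx level was 5.41 times lower (4.73 to 6.2). Thinned shares of cells with any Dlx UMI were also highest at 2 to 4 UMIs, at 21.9%. The ends of the range were ordered differently by the 2 measures, since the thinned share was 4.45% in cells without Stmn2 and 5.56% at 10 or more, while the summed level was 47.8 CPM and 41.8 CPM.

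**Figure D1:**
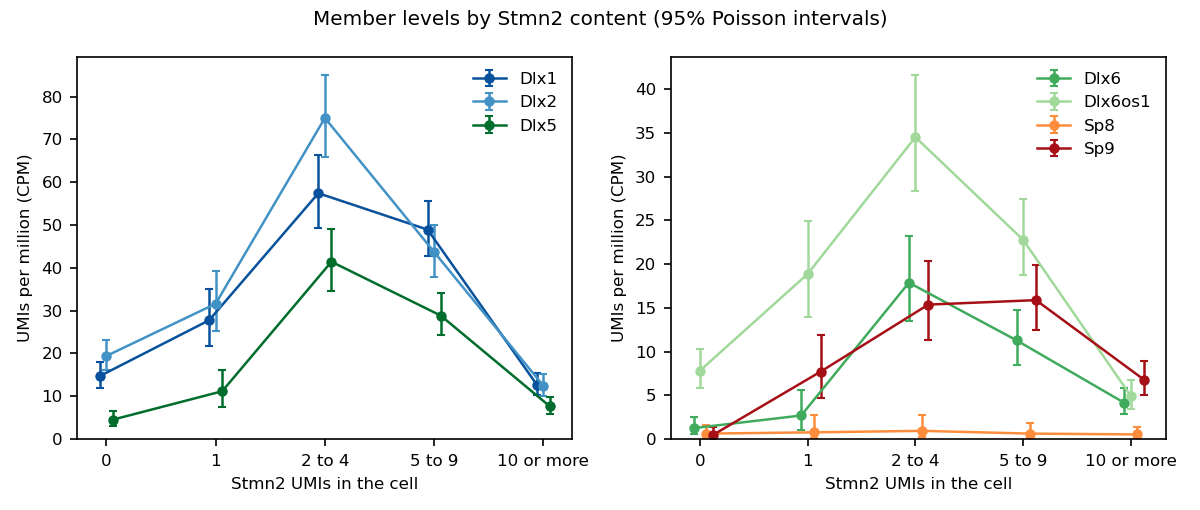
Pooled level of each member (CPM) in cells with 0, 1, 2 to 4, 5 to 9 and 10 or more Stmn2 UMIs. Points are 1 library's pooled counts and bars are 95% Poisson intervals. The Dlx genes peak at 2 to 4 Stmn2 UMIs, Sp9 stays near its highest level up to 5 to 9, and Sp8 lies near 0 in every tier.

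Sp9 made up more of the UMIs at high Stmn2 than in cells without Stmn2. It was at 0.47 CPM (0.0969 to 1.37) in cells without Stmn2, where 3 of 1705 cells held it. It was at 15.4 CPM at 2 to 4 UMIs, 15.9 CPM at 5 to 9 and 6.81 CPM at 10 or more. The values at 2 to 4 and 5 to 9 lie within each other's intervals. Sp9 made up 0.974% (0.201 to 2.82) of the UMIs of Sp9 and the Dlx genes in cells without Stmn2 and 14% (10.6 to 18) in cells with 10 or more Stmn2 UMIs. These values pool the Sp9 cells that hold Dlx genes with cells that hold the thalamus gene Gbx2, described further on. Without the cells that hold a Gbx2 UMI, an alternative chosen after seeing the data, Sp9 was at 11.3 CPM (7.83 to 15.6) at 2 to 4 UMIs, 11.5 CPM (8.6 to 15) at 5 to 9 and 5.71 CPM (4.12 to 7.72) at 10 or more. Its share was then 0.974% in cells without Stmn2 and 11.9% (8.69 to 15.7) at 10 or more. Gbx2 neurons in which no Gbx2 UMI was found remain in these values.

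The make-up of the Dlx UMIs also moved along the tiers. Of the UMIs of Dlx1, Dlx2, Dlx5 and Dlx6, the Dlx5 and Dlx6 locus held 14.5% (10.4 to 19.4) in cells without Stmn2 and 18.9% (13.6 to 25.3) in cells with 1 UMI. It held 30.9% (27.3 to 34.8), 30.2% and 31.9% in the 3 higher tiers. Dlx6os1 went the other way against its partner on the opposite strand. Of the UMIs of Dlx6 and Dlx6os1 together, the antisense RNA held 86.2% (74.6 to 93.8) in cells without Stmn2 and 54.4% (41.9 to 66.6) in cells with 10 or more. The share of Dlx1 among Dlx1 and Dlx2 stayed between 43.1% and 52.8%.

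Among the cells below the neuron gate, most cells with Gsx1, a homeodomain factor of ventral forebrain progenitors, held Dlx genes. Of 74 such cells with a Gsx1 UMI, 49 (66.2%, 54.3 to 76.8) held a Dlx UMI. In the 74 cells with Gsx1, Dlx2 was at 399 CPM and Dlx1 at 294 CPM, while Dlx5 was at 54.4 CPM, and Sp9 was found in 1 cell. The 74 cells were shallow, with a median of 2418.5 UMIs. The 49 cells with both genes were 26.8% (20.5 to 33.8) of the 183 cells below the gate with a Dlx UMI, so no Gsx1 UMI was found in most of those 183. Gsx1, which the study uses as a marker of Ghrh neurons, was not limited to cells below the gate. It was found in 66 of the 673 neurons with a Dlx UMI (9.81%) and in 24 of the 3333 without (0.72%). Of 213 cells below the gate with at least 2 UMIs of the proliferation genes Mki67 and Top2a, 8 (3.76%) held a Dlx UMI, close to the pituitary share. Notch target Hes5 marked 506 cells, of which 24 (4.74%) held a Dlx UMI.

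Neurons were then split by a UMI of Lhx1, Ghrh, Th or Otp. Lhx1 neurons stood out. Lhx1 was found in 204 neurons (5.09%) and in 0 of the 547 pituitary-gated cells, a count that leaves room for a share of up to 0.548%. Of the 204, 175 (85.8%, 80.2 to 90.3) held a Dlx UMI. Dlx1 was found in 114 of them (55.9%) and was at 306 CPM, against 21 CPM in neurons without Lhx1, a ratio of 14.6 (12.2 to 17.5). Dlx2 was at 237 CPM, with a ratio of 9.09 (7.5 to 11). Both genes of the other locus were high as well. Dlx5 was found in 81 Lhx1 neurons and had a ratio of 11.4 (8.96 to 14.4). Dlx6 was found in 44 and had a ratio of 13.4 (9.32 to 19). Sp9 was found in 62 of the 204 (30.4%, 24.2 to 37.2), at 141 CPM against 5.61 CPM, and its ratio of 25.1 (18.5 to 34.2) was the highest of the members. The cells with and without a UMI of a split gene are sorted by detection, so neurons without the UMI can still hold the transcript.

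Ghrh and Th neurons held the Dlx1 and Dlx2 locus but little of Dlx6. Ghrh was found in 93 of 4006 neurons (2.32%, 1.88 to 2.84) and in 8 of the 547 pituitary-gated cells (1.46%, 0.634 to 2.86), shares whose intervals overlap. Of the 93, 54 (58.1%, 47.4 to 68.2) held a Dlx UMI. The summed Dlx log2 ratio of neurons with Ghrh to those without was 2 (1.76 to 2.24), and 2.63 (2.34 to 2.9) when 2 UMIs counted as detection. Dlx1 and Dlx2 were each at 162.5 CPM in them, 5.4 (4.04 to 7.11) and 5.08 (3.8 to 6.68) times their level in neurons without Ghrh. Dlx5 was at 33.6 CPM against 20.9 CPM, a ratio of 1.61 with an interval of 0.824 to 2.85 that includes 1. Dlx6 was found in 3 of the 93, with a ratio of 0.913 (0.186 to 2.72). Dlx6os1 was found in 21 of them, with a higher ratio of 4.17 (2.6 to 6.42), an interval that just overlaps that of Dlx6. Th neurons gave a like picture. Th was found in 163 neurons (4.07%) and in 3 of the pituitary-gated cells (0.548%). Of the 163, 97 (59.5%, 51.5 to 67.1) held a Dlx UMI, and the summed log2 ratio went from 2.2 (2.01 to 2.39) to 2.71 (2.44 to 2.96) with 2 UMIs. The Th ratios were 5.82 (4.6 to 7.3) for Dlx1, 5.17 (4.07 to 6.5) for Dlx2, 2.75 (1.83 to 3.98) for Dlx5 and 0.957 (0.306 to 2.29) for Dlx6. Sp9 was found in 3 Ghrh neurons and 8 Th neurons, with ratios of 1.49 (0.54 to 3.32) and 1.58 (0.744 to 2.98).

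In Otp neurons, the group that includes developing Agrp neurons, the members differed. Otp was found in 750 of 4006 neurons (18.7%, 17.5 to 20), and in 22 of the 547 pituitary-gated cells (4.02%, 2.54 to 6.03), which should lack it. Of the 750, 113 (15.1%, 12.6 to 17.8) held a Dlx UMI. Dlx2 was at 36.1 CPM with Otp and 34.8 CPM without, a ratio of 1.04 (0.821 to 1.3), and Dlx6os1 had a ratio of 1.07 (0.755 to 1.48). Dlx1 was lower with Otp, at a ratio of 0.701 (0.53 to 0.915). Dlx5 (0.468, 0.306 to 0.691) and Dlx6 (0.461, 0.232 to 0.834) were lower still. Sp9 was the lowest, found in 6 of the 750, with a ratio of 0.238 (0.101 to 0.48). The summed Dlx ratio was 0.784 (0.681 to 0.898), a log2 ratio of -0.35. It moved in both directions with the settings, to -0.67 (-0.92 to -0.42) when 2 UMIs counted as detection, to -0.56 (-0.87 to -0.27) in thinned cells, and to 0.22 (-0.03 to 0.46), an interval that includes 0, when neurons needed 5 Stmn2 UMIs.

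To keep the 4 groups from sharing cells, neurons were placed in classes in the order Ghrh, Th, Lhx1, Otp. The 189 Lhx1 neurons without Ghrh or Th had their largest ratios to the 93 Ghrh neurons in Dlx6 and Sp9. Dlx6 was at 86.3 CPM against 8.41 CPM, a ratio of 10.3 (3.32 to 51.4), and Sp9 at 143 CPM against 16.8 CPM, a ratio of 8.48 (3.74 to 23.8). Dlx5 had a ratio of 5.03 (2.76 to 10.1), an interval that overlaps those of Dlx6 and Sp9. Dlx2 differed far less, at a ratio of 1.48 (1.08 to 2.04). The Dlx5 and Dlx6 locus held 31.7% (27.6 to 36) of the Dlx1, Dlx2, Dlx5 and Dlx6 UMIs in the Lhx1 class, 21.8% (14.9 to 30.1) in the Th class and 11.5% (6.55 to 18.2) in the Ghrh class. It held most, 37.5% (33.8 to 41.3), in the 2922 neurons with a UMI of none of the 4 genes. Those neurons held 316 of the 673 neurons with a Dlx UMI.

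**Figure D2:**
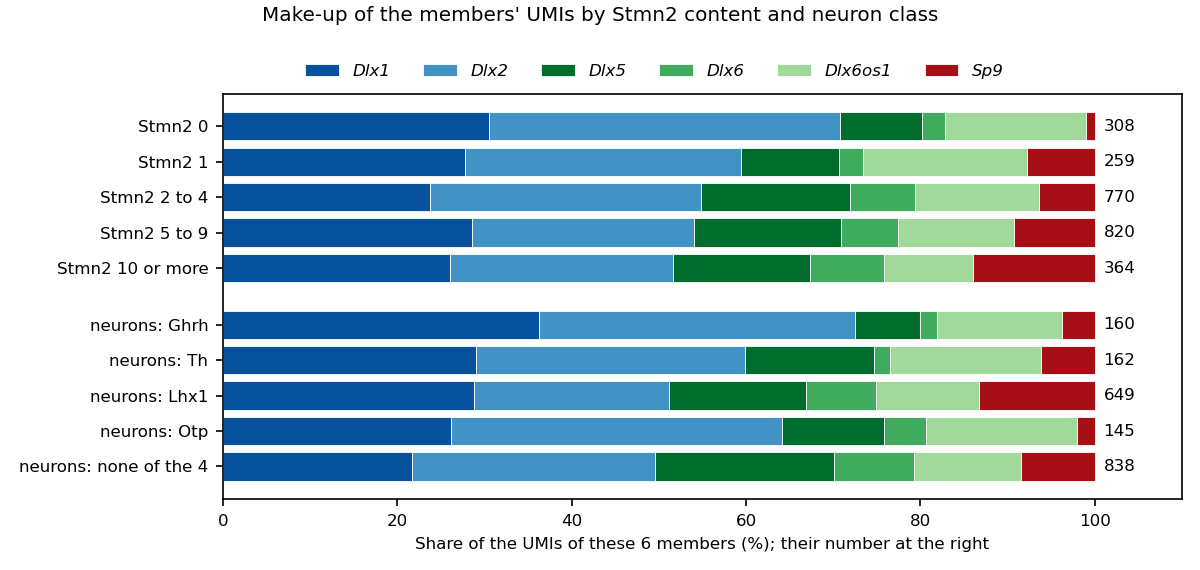
Share of each member (%) in the UMIs of Dlx1, Dlx2, Dlx5, Dlx6, Dlx6os1 and Sp9, by Stmn2 content of all cells (upper bars) and by neuron class (lower bars; classes share no cell). The number of UMIs is at the right. The Dlx5 and Dlx6 parts are narrow in cells without Stmn2 and in Ghrh neurons, and Sp9 is widest in Lhx1 neurons and at 10 or more Stmn2 UMIs.

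Other genes of the neurons placed the members further. Neurons with the GABA genes were rich in Dlx. Of neurons with Gad1, Gad2 and Slc32a1, which encode the GABA-making enzymes and the vesicular GABA transporter, 48%, 45.1% and 46.4% held a Dlx UMI. In contrast, 22 of 714 neurons with Slc17a6 (3.08%), the vesicular glutamate transporter, held a Dlx UMI, against 3.47% of the pituitary-gated cells. Their Dlx level of 15.9 CPM (11.9 to 20.7) was above the 8.71 CPM (5.64 to 12.9) of the pituitary-gated cells, with intervals that overlap, and below the 142 CPM of neurons without Slc17a6. Neurons with Hmx2, a homeodomain gene of developing Ghrh neurons, held Dlx genes without Sp9. Of 209 such neurons, 134 (64.1%, 57.2 to 70.6) held a Dlx UMI and 2 held Sp9.

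Sp9 had a second site with almost no Dlx. Gbx2 encodes a homeodomain factor of the developing thalamus, and of 98 neurons with Gbx2, 33 (33.7%, 24.4 to 43.9) held Sp9, at 125 CPM against 8.62 CPM in neurons without Gbx2. In these 98 neurons Dlx2, Dlx5, Dlx6 and Dlx6os1 were at 0, a count that leaves room for shares of up to 3.06%, and Dlx1 was found in 2. Of the 126 neurons with Sp9, 74 held a Dlx UMI and 52 did not. The 74 with Dlx included 59 with Lhx1 (79.7%) and 1 with Gbx2. The 52 without Dlx included 3 with Lhx1 and 32 with Gbx2 (61.5%). Tcf7l2, a further gene of thalamus and habenula, was found in 47 of the 52 (90.4%). It was also found in 55.5% of all 3333 neurons without a Dlx UMI. Neurons with Fezf1, a gene of the ventromedial hypothalamus, numbered 369, of which 0 held Sp9 (a share of up to 0.813%) and 16 held a Dlx UMI.

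**Figure D3:**
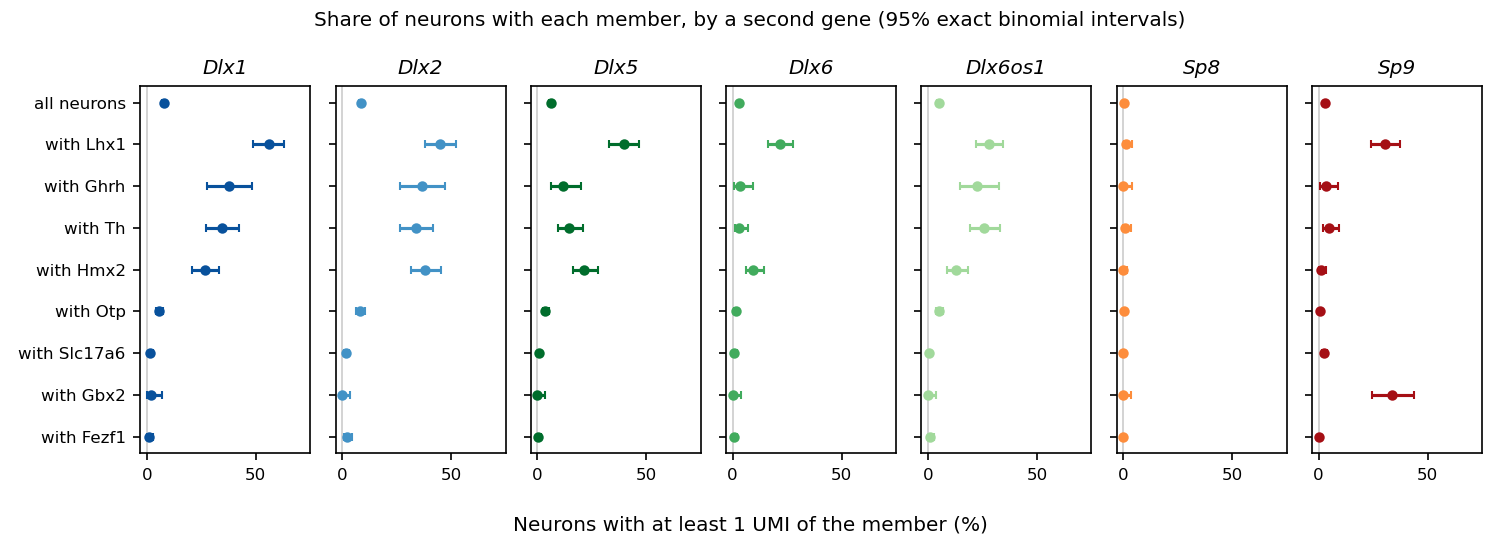
Share of neurons with at least 1 UMI of each member (%), in all 4006 neurons and in neurons with a UMI of the gene named at the left. Points are shares within 1 library and bars are 95% exact binomial intervals. Lhx1 neurons lie far to the right for all members but Sp8, Ghrh and Th neurons for Dlx1, Dlx2 and Dlx6os1, and Gbx2 neurons for Sp9 alone.

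The members were found in the same cells far more often than independent detection gives. In neurons, Dlx1 and Dlx2 were found together in 163 cells against 28.1 expected, a ratio of 5.81 (4.95 to 6.78). Dlx5 and Dlx6 were found together in 52 against 7.71, a ratio of 6.75 (5.04 to 8.85). Pairs within a locus and across loci overlapped in range. The 4 pairs of a shared locus had ratios from 4.74 to 6.75 with a median of 5.35, and the 6 pairs across the 2 loci had ratios from 4.69 to 6.24 with a median of 5.22. The highest across loci was Dlx1 with Dlx6os1, at 98 cells and a ratio of 6.24 (5.07 to 7.6). Pairs of a Dlx gene with Sp9 ranged from 3.81 for Dlx6 to 5.52 for Dlx6os1. When the expected number was summed within 10 bins of cells by depth, the ranges became 3.72 to 5.27, 3.71 to 5.06 and 3.31 to 5.13. All 15 of these pairs had intervals above 1 over all kept cells and over neurons. No doublet caller was run. Of the 434 neurons with at least 2 Dlx UMIs, 12 (2.76%) held the glutamate gene Slc17a6.

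Co-detection with the split genes counts the same cells as the shares given above and is not a separate observation. Sp9 and Lhx1 were found together in 62 neurons against 6.42 expected, a ratio of 9.66 (7.41 to 12.4). Sp9 and Otp were found together in 6 against 23.6, a ratio of 0.254 (0.0933 to 0.554). Dlx2 with Otp was near the expected number, at 63 against 65.5. Dlx1 with Otp was at 43 against 60.1, a ratio of 0.716 (0.518 to 0.964). That interval came to include 1 with a mitochondrial limit of 5% (0.554 to 1.065), with 2 Tubb3 UMIs (0.581 to 1.015) and with 5 Stmn2 UMIs (0.747 to 1.56).

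**Figure D4:**
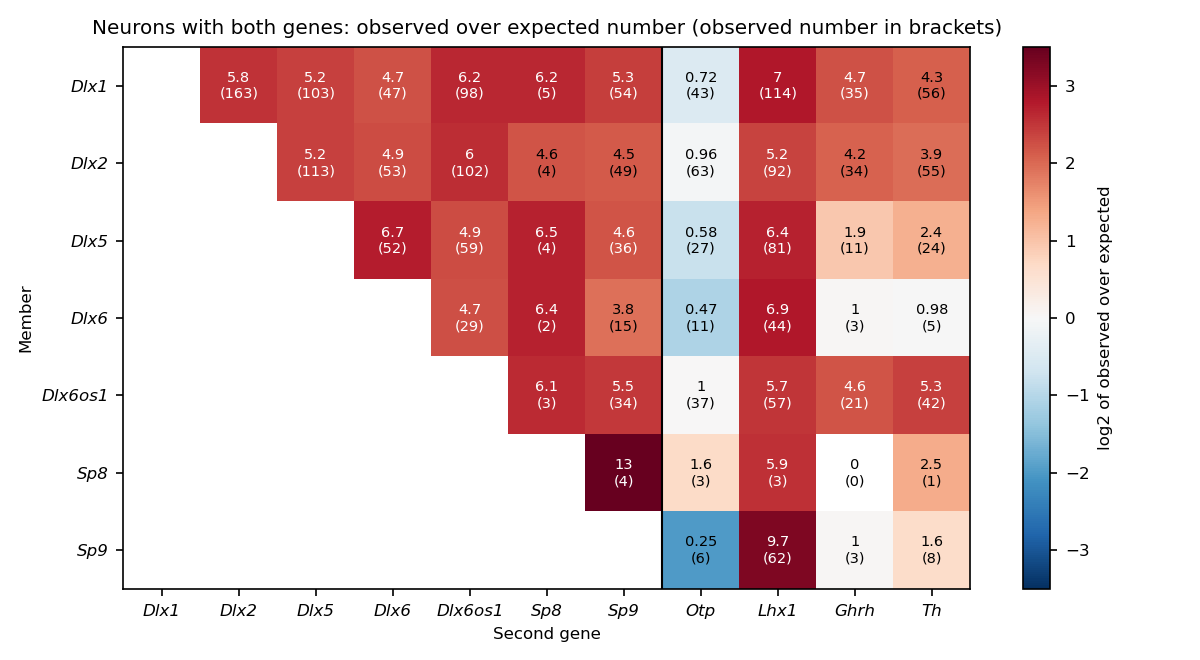
Number of neurons in which both genes had a UMI, divided by the number expected from independent detection, for each pair of members (left of the line) and each member with Otp, Lhx1, Ghrh and Th (right of the line). The colour is the log2 of the ratio, brackets give the observed number, and the white field of Sp8 with Ghrh is a count of 0. Pairs among the Dlx genes and Sp9 lie between 3.81 and 6.75, and with Otp the members other than Sp8 lie between 0.254 and 1.01.

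Neurons that showed Dlx genes were shallower in the median than those that showed none. Of the 673 neurons with a Dlx UMI, 306 showed 1 of the 5 Dlx genes, 215 showed 2, 112 showed 3, 33 showed 4 and 7 showed all 5. In this order, their median depths were 2891.5, 2913, 2746.5, 3178 and 2588 UMIs, with no steady rise. All were below the 3538 UMIs of neurons without any. In the shallower 2003 neurons Dlx1 was found in 11.5% (10.2 to 13), and in the deeper 2003 in 4.49% (3.63 to 5.49). The other members, Sp8 included, also had the higher share in the shallower neurons.

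All genes were then compared between 434 Dlx neurons, those with at least 2 Dlx UMIs, and 3333 neurons without a Dlx UMI. The groups also differed in depth, with medians of 2894.5 and 3538 UMIs. The 6 neuron markers summed to 5340.8 CPM in Dlx neurons and 6525.5 CPM in the others, with 1 of the 6 higher in Dlx neurons. The part of depth and maturity in the ratios was not tested. Of 10792 genes with at least 50 UMIs, 164 (1.52%) were at least 2-fold higher in Dlx neurons and 644 (5.97%) at least 2-fold lower. These calls rest on 1 library and on size alone. Lhx1 was at 199 CPM against 3.34 CPM, a log2 ratio of 5.9 (5.43 to 6.39), and Ghrh was at 5.22, Th at 3.62 and Hmx2 at 3.46. Genes of the amine pathway were among them, Slc18a2, the vesicular monoamine transporter, at 4.36 and Ddc, the decarboxylase that makes dopamine, at 2.45. Penk, the enkephalin precursor, had a log2 ratio of 4.2. Avp, the vasopressin precursor, had the lowest log2 ratio at -5.17 (-6.79 to -3.94), and Nr5a1 and Fezf1 of the ventromedial hypothalamus were at -4.5 and -4.14. Neuropeptide gene Npy of Agrp neurons was at -3.81 (-4.72 to -3.03). Of the 17 arcuate neuron genes with at least 50 UMIs, 6 were at least 2-fold higher and 7 at least 2-fold lower, with a median of -0.25. The 6 were Lhx1, Ghrh, Th, Hmx2, Slc18a2 and Ddc. Beside Npy, the lower genes were Sox14 (-3.17), Agrp (-2.4), Nhlh2 (-2.17), the forkhead gene Foxp2 (-1.76), Sst (-1.66) and Tac2 (-1.65). Markers of neurons from outside the ARC moved with this contrast. The 6 habenula and thalamus markers summed to 308 CPM in Dlx neurons and 1901 CPM in the others, and 0 of the 6 were higher in Dlx neurons, with Gbx2 found in 0 of the 434. Tcf7l2 made up most of these sums, at 183 CPM and 1068 CPM. The 4 markers of the ventromedial hypothalamus summed to 24.3 CPM and 231 CPM, and 0 of the 4 were at 0 in Dlx neurons. Some markers of other cell types were lower too. The 7 pituitary markers summed to 29.2 CPM in Dlx neurons and 89.5 CPM in the others, with 0 of the 7 higher. Fibroblast markers summed to 16.7 CPM and 37 CPM, and macrophage markers to 2.78 CPM and 11.3 CPM. Erythroid markers were not lower, at 279 CPM and 266 CPM. The part of all these markers in the ratios was not tested.

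The lists of pathway genes show where the Dlx neurons stood. Of 13 measured GABA and Dlx-dependent genes, 5 were at least 2-fold higher and 1 at least 2-fold lower, with a median log2 ratio of 0.57 against -0.01 over all genes. The higher genes included Gad1 (2.65), Slc32a1 (2.51), Gad2 (2.24) and Maf (1.36), and the lower gene was Erbb4, the neuregulin receptor of migrating interneurons, at -1.34. Of 6 measured genes of the glutamate list, 0 were higher and all 6 were at least 2-fold lower, with a median of -3.85. Among them, Slc17a6 was at -2.49. The list also holds Fezf1 and Nr5a1, the ventromedial hypothalamus genes already counted above, and Neurod6, which is among the habenula and thalamus markers. Of 13 upstream and progenitor genes, 3 were higher, among them Gsx1 at 4.15 and Rax at 1, and Neurog2 and Nkx2-2 were lower at -2.46 and -2.36. Of 12 measured partner factors of telencephalic interneurons, 0 were higher and 5 lower, among them Nr2f1 (-1.97) and Nr2f2 (-1.65), nuclear receptors of migrating interneurons. Genes of that list under the minimum of 50 UMIs are not in these counts. Among them, Lhx8 had 9 UMIs in Dlx neurons and 10 in the others, a log2 ratio of 3.04 (1.57 to 4.5), Meis1 had 9 and 14 (2.56, 1.17 to 3.87), and Vax1 had 12 and 22 (2.32, 1.17 to 3.4). Lhx6 had 1 UMI in Dlx neurons and 0 in the others, and Meis2 had 2 and 10 (0.87, -2.36 to 3.1), an interval that includes 0. Six3, a forebrain factor that the hypothalamus also expresses, was found in 230 of the 434 Dlx neurons (53%). The 5 telencephalon markers together came to 9.73 CPM in Dlx neurons and 1.37 CPM in the others, with 4 of the 5 higher in Dlx neurons and 1 at 0, and their part in the ratios was not tested. Of the 4 measured family relatives, Sp1 to Sp4, 0 passed 2-fold in either direction. Dlx3 and Dlx4 each had 0 UMIs in Dlx neurons, and Dlx1as had 22 UMIs there against 4 in the others, with the caution on strand given above.

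A GABA marker was found in 197 of the 434 Dlx neurons (45.4%) and in 361 of the 3333 others (10.8%). Limiting both groups to neurons with Gad1, Gad2 or Slc32a1 set 197 Dlx GABA neurons, with a median of 3056 UMIs, against 361 others, with a median of 2992. Of 5303 genes, 29 (0.547%) were at least 2-fold higher and 62 (1.17%) at least 2-fold lower. Lhx1 (3.53), Ghrh (3.5) and Th (1.77) were still among the highest log2 ratios. Nxph1, which encodes a neurexin ligand, and Insm1, a zinc finger factor of newborn neurons, joined them at 2.46 and 1.59. The GABA neurons without Dlx held the genes of Agrp and somatostatin neurons. Npy was at 8.45 CPM in Dlx GABA neurons and 517 CPM in the others, a log2 ratio of -5.93 (-7.39 to -4.8). Agrp was at -3.96, Sst at -3.06 and Otp at -1.94 (-2.23 to -1.66). Of the 13 measured arcuate neuron genes, 4 were at least 2-fold higher and 6 at least 2-fold lower, with a median of -0.26. Of the 9 glutamate genes, 1 reached 50 UMIs here, and it did not reach 2-fold. Of the 8 measured partner factors of telencephalic interneurons, 0 were at least 2-fold higher and 0 at least 2-fold lower here.

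Within the Dlx neurons, 65 held Sp8 or Sp9 and 369 held neither. Of 4184 genes, 50 (1.2%) were at least 2-fold higher with Sp8 or Sp9 and 165 (3.94%) at least 2-fold lower. These counts were 22 and 86 in thinned cells, and 29 and 98 when neurons needed 5 Stmn2 UMIs. Lhx1 was at 527 CPM against 139.5 CPM, a log2 ratio of 1.92, its neighbour Lhx1os was at 1.76, and Nhlh2, a basic helix-loop-helix factor, was at 1.09. Ghrh was the lowest, with 2 UMIs in the neurons with Sp8 or Sp9 and 410 in those without, a log2 ratio of -5.21 (-8.26 to -3.35). Hmx2 (-4.5), Tbx3 (-2.65), Pomc (-2.25), Prox1 (-1.75) and Isl1 (-1.3) were lower as well. In these neurons Lhx1 went with Sp8 or Sp9, and Ghrh and Hmx2 went with their absence.

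**Figure D5:**
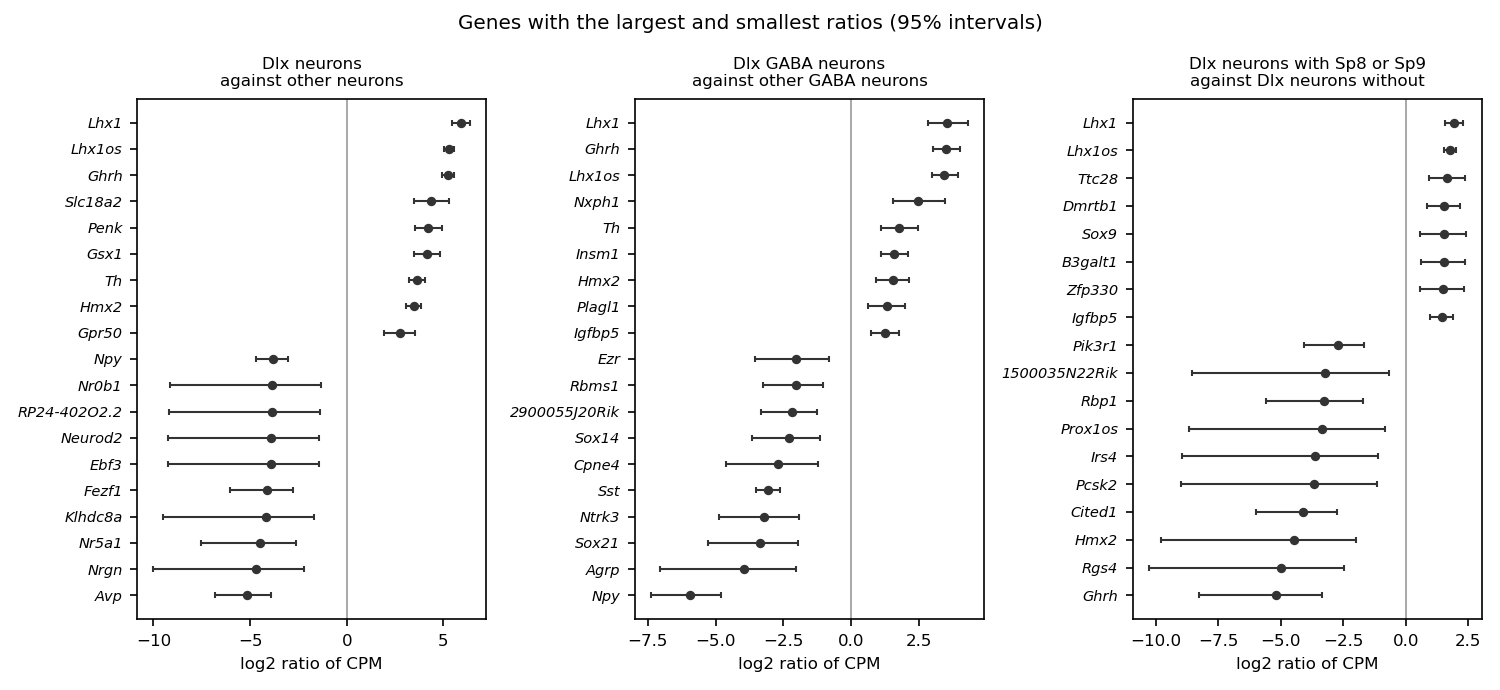
Genes among the 10 largest and the 10 smallest ratios of CPM in each of the 3 comparisons, without the members and genes not reported here (log2 scale; bars are 95% exact intervals from counting). Lhx1 is among the highest in all 3, Npy is lowest among GABA neurons, and Ghrh is lowest in Dlx neurons with Sp8 or Sp9.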

How the data were processed

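The authors made the deposited table, raw counts of UMIs for every gene in every barcode, with Cell Ranger 2.1.1 and STAR 2.4.0 from reads aligned to mm10, with all embryos and sequencing runs in 1 table, per the labels and the study's methods. The counts are not normalized, and only 1 library exists, so the 4 runs were treated as 1 sample. Cells were kept with 200 to 4500 genes found, a mitochondrial share of no more than 10% and no more than 10 Hba-a1 UMIs, as the study states. Its own count of cells after these limits is lower than the number left here. The limit of 4500 genes was the only step against doublets.

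Shares are percents of cells with at least 1 UMI, with exact binomial (Clopper-Pearson) 95% intervals. Levels are pooled CPM with exact Poisson intervals, and ratios of CPM have conditional exact binomial intervals. Where a count was 0, 3 counts set the limit. Shares were repeated after thinning every cell to 2167 UMIs, which dropped 635 of 6351 cells. Co-detection is the observed number of cells over the number that independent detection gives. Comparisons over all genes used genes with at least 50 UMIs and a ratio of at least 2 or at most 0.5. The genes named are the members, the gene lists, and the 10 largest and 10 smallest ratios whose interval leaves out 1. Some of these genes are not reported here. The alternatives were a mitochondrial limit of 5%, thinned cells, leaving out the 5% deepest cells, neurons by 5 Stmn2 or 2 Tubb3 UMIs, detection at 2 UMIs, means of shares per cell, expected numbers by depth, a minimum of 20 UMIs, Dlx neurons from 1 UMI and, chosen after seeing the data, leaving out cells with a Gbx2 UMI. The members and lists were chosen with earlier results of these data known. The ratio step was tested on simulated data. The scripts ran on Python 3.11.15 with scipy 1.17.1, numpy 2.4.6, matplotlib 3.10.9 and pandas 2.3.3, with GENCODE positions and RefSeq promoter windows.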

Additional observations from a re-analysis of the deposited data

Results flagged for a closer look

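The 114 barcodes left out by the limits on genes, mitochondrial UMIs and Hba-a1 were not part of any comparison. They had a median of 16313 UMIs, and 11 of them, 9.65% (4.92 to 16.6), held a UMI of a Dlx gene, a count above 0. Their pooled Dlx level of 7.04 CPM lies within the interval of the kept pituitary-gated cells (8.71 CPM, 5.64 to 12.9), which serve as background, so it cannot be told from background. The kept cells as a whole were at 95 CPM.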

How the results depend on the processing

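Of 162 values under 10 alternative settings, 105 stayed within the main interval or within 1.5 times the main count, 52 moved beyond it and 5 reversed. The mitochondrial limit of 5% and leaving out the deepest cells left all 26 results within their main interval or within 1.5 times their main count. With the 5% limit, however, the intervals of the Dlx6os1 log2 ratio of neurons to other cells (0.35, -0.0139 to 0.725) and of the co-detection of Dlx1 and Otp (0.779, 0.554 to 1.06) came to include no difference. With 5 Stmn2 UMIs for a neuron, the log2 ratios of neurons to other cells became -0.0971 for Dlx1, -0.571 for Dlx2 and -0.53 for Dlx6os1, the Otp log2 ratio became 0.218, and the co-detection of Dlx1 and Otp became 1.1 (0.747 to 1.56). The intervals for Dlx1, for the Otp ratio and for this co-detection leave the direction unsettled. By its construction that setting counts the cells with 2 to 4 Stmn2 UMIs as other cells. It also gave log2 ratios of 0.0255 for Dlx5, 0.227 for Dlx6 and 0.807 for Sp9 between neurons and other cells, 14% of neurons with a Dlx UMI, log2 ratios of 3.92 for Lhx1 and 2.58 for Th, co-detection of 7.06 for Dlx1 and Dlx2, 9.24 for Dlx5 and Dlx6, 1.34 for Dlx2 and Otp and 8.56 for Dlx1 and Lhx1, and 29 higher and 98 lower genes with Sp8 or Sp9. Thinned cells, with neurons set by thinned Stmn2 counts, gave 13.2% of neurons with a Dlx UMI, a log2 ratio of 2.79 from 2 to 4 to 10 or more Stmn2 UMIs, log2 ratios of -0.563 for Otp, 3.28 for Lhx1 and 1.92 for Th, co-detection of 6.93 for Dlx1 and Dlx2 and 9.79 for Dlx5 and Dlx6, 19 genes higher in Dlx GABA neurons, and 22 higher and 86 lower genes with Sp8 or Sp9. Detection at 2 UMIs gave 10.8% of neurons, log2 ratios of -0.666 for Otp, 2.63 for Ghrh and 2.71 for Th, and co-detection of 9.77 for Dlx1 and Dlx2, 9.37 for Dlx5 and Dlx6, 4.1 for Dlx1 and Dlx5, 8.84 for Dlx1 and Sp9, 0.363 for Dlx1 and Otp, 0.708 for Dlx2 and Otp and 10.3 for Dlx1 and Lhx1. Neurons by 2 Tubb3 UMIs moved the log2 ratio of neurons to other cells to 1.55 for Dlx1, 1.8 for Dlx2, 2.09 for Dlx6os1 and 3.47 for Sp9. Under that gate the interval of the co-detection of Dlx1 and Otp (0.776, 0.581 to 1.015) also came to include no difference. Expected numbers by depth gave 4.88 for Dlx1 and Dlx2, 4.23 for Dlx1 and Dlx5 and 5.4 for Dlx1 and Lhx1. A minimum of 20 UMIs raised the counts of genes by admitting more genes, to 345 higher and 985 lower in Dlx neurons, 141 and 248 in Dlx GABA neurons, and 222 and 570 with Sp8 or Sp9. Leaving out cells with a Gbx2 UMI, chosen after seeing the data, took the Sp9 log2 ratio of neurons to other cells from 2.15 to 1.87. The cause of the other moves was not tested.

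The main limits are 1 pooled library, a median of 3338 UMIs per cell, and detection of most members at a single UMI, so a neuron without a UMI is not shown to lack the gene. No paired analysis was possible because the runs form 1 library and no groups are compared across samples.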
